A study of Canis lupus familiaris with 12 samples.

Results

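Integrins and laminins are the receptors and the ligands with which heart cells hold on to their basement membrane. The mRNA table of the right atrium of dogs listed 35 such genes among 19856, namely 24 integrin chains and 11 laminin chains. They were taken by their names alone: ITGA or ITGB with a digit or letter code, and LAMA, LAMB or LAMC with a digit, without ITGBL1 and the ITGB1BP genes. ITGB3, ITGB4 and LAMA5 were not found by these names and were not analysed here.

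The study compared mongrel dogs after 14 days of rapid right atrial pacing, a model of atrial fibrillation, with control dogs, and 3 dogs of each group, a subset of those operated on, were sequenced. The control dogs had the same operation and pacemaker without stimulation. Both groups were of either sex, all dogs were operated on under isopentobarbital anesthesia and given the antibiotic cefuroxime afterwards, and the age was not given in the sources used here. Ribosomal RNA was removed from total RNA of the right atrium before sequencing. The levels are FPKM, that is reads per length of transcript and per depth of library, so levels of different genes can be set side by side. The libraries are named C1, C2 and C4 (control) and P1, P2 and P3 (pacing).

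The grouping of C4 is in doubt, since the sample labels give the sample titled C4 as paced while its column carries the letter of the control group. C4 also stood apart: the summed level of 9 atrial muscle markers was 68.2 FPKM there and lay from 2828 to 15890 FPKM elsewhere, while 5 ventricular muscle markers summed to 7996 FPKM there and to 194 to 852 FPKM elsewhere. The chamber of C4 is in doubt as well and was not tested. C4 was the lowest of the 6 libraries for 46.7% of the tested integrin and laminin genes and for 43.8% of all genes tested. Counts and the genes that passed a test are therefore given with C4 as control and without C4. The steps between low FPKM values gave depths relative to P3 of 0.527, 0.562 and 0.608 in C1, C2 and C4 and of 0.721 and 0.994 in P1 and P2, so the pacing libraries were the deepest.

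An integrin is a pair of an alpha and a beta chain that spans the cell membrane, binds matrix outside and connects to actin inside. A laminin is a trimer of an alpha, a beta and a gamma chain and forms the sheet of the basement membrane. In muscle the alpha2 laminin around the fibers, encoded by LAMA2, is bound by the integrin of ITGA7 and ITGB1 and by dystroglycan, while the alpha4 laminin of LAMA4 is typical of vessels.

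Over the 6 libraries, C4 included, a small set of chains was abundant and many were rare. A mean of 50 FPKM or more over the 6 libraries was reached by 7 genes, 8 lay from 10 to 50 FPKM, 15 from 1 to 10 FPKM, and 5 were under 1 FPKM. ITGB1, the beta chain that most alpha chains share, had the highest level with 158, 132 and 175 FPKM in C1, C2 and C4 and 164, 134 and 141 FPKM in P1, P2 and P3. The groups overlapped, and ITGB1 took 60.9% ± 7.89 of the integrin beta chain FPKM in control dogs and 59.8% ± 3.10 in paced dogs (SD, n = 3, 2-sided exact permutation test, p = 0.9).

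**Figure D1:**
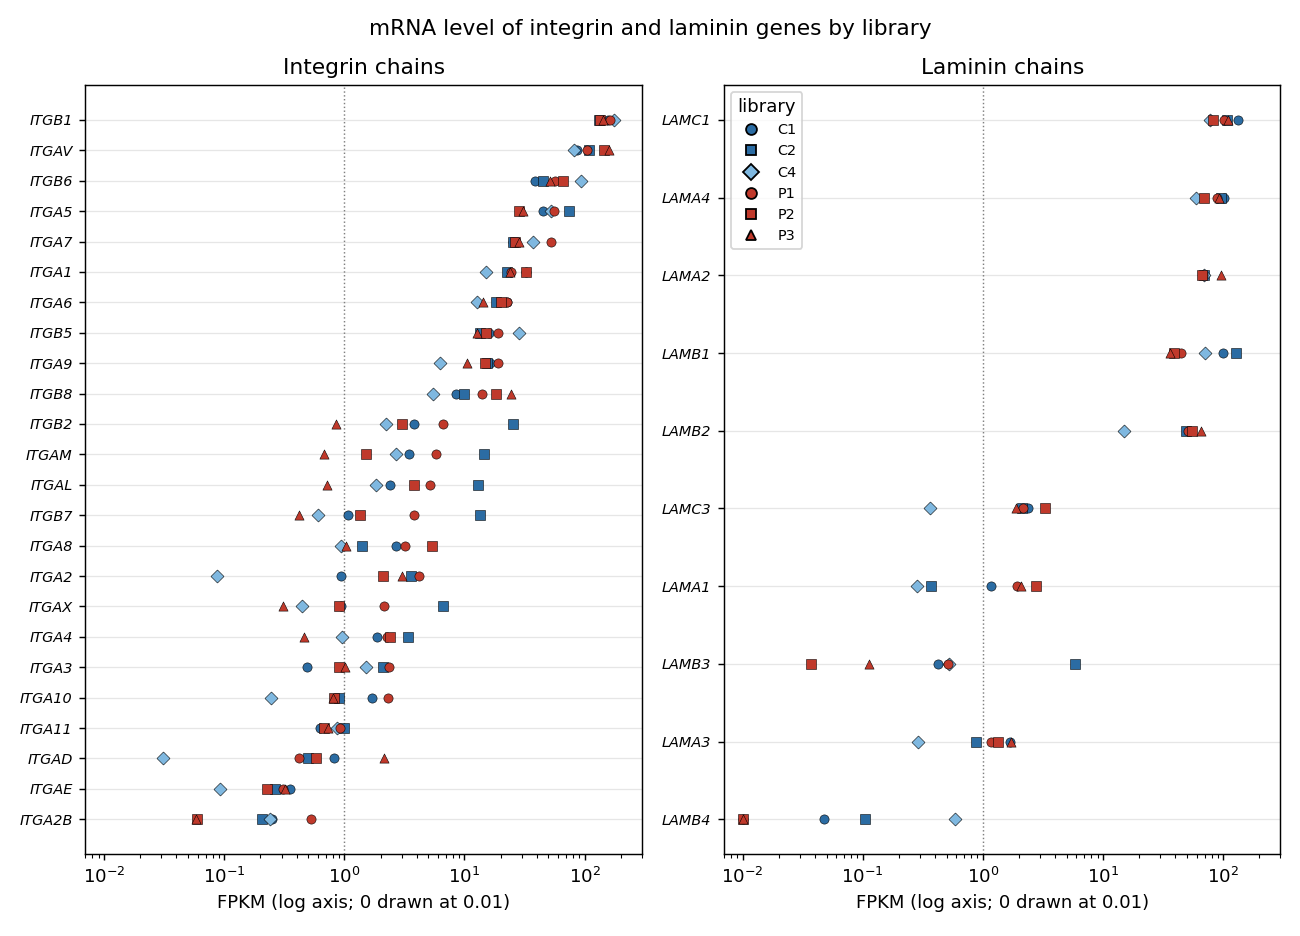
FPKM (log axis) of the 24 integrin genes (left) and the laminin genes reported here (right), with 1 point for each library, blue for control, light blue for C4 and red for pacing, and a dotted line at 1 FPKM. The 3 pacing points of LAMB1, from 36.4 to 44.4 FPKM, lie below its 3 control points, and those of ITGB8, from 13.9 to 24.4 FPKM, lie above.

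Between the groups, 30 of the 35 genes reached a mean of 1 FPKM and were tested with limma on log2(FPKM + 1). ITGA11, ITGAD, ITGAE, ITGA2B and LAMB4 did not. ITGB8 and LAMA1 were higher and LAMB1 was lower in the pacing group at a change of 2-fold or more with an unadjusted p of 0.05 or less. Of all 11583 genes tested, 1.05% passed that rule as higher and 0.958% as lower. The 2 higher genes are 6.67% and the 1 lower gene is 3.33% of the 30, both above those shares, from very few genes. Of these, LAMA1 reached the mean of 1 FPKM only through the pacing group, so its call is no support for the share of higher genes. The groups did not overlap for the same 3 of the 30 genes, against 4.9% of all genes as higher and 6.14% as lower.

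No integrin or laminin gene passed an adjusted p under 0.05 (limma, Benjamini-Hochberg over all genes), where the smallest was 0.879. Each of 15 alternatives also gave 0. Of all genes 0.0259% passed, which are 3 genes encoded by mitochondria and listed at 0 in every pacing library. An unadjusted p under 0.05 was reached by 3 of the 30 (limma), and the share of all genes at that threshold alone is not given here. The log2 fold change was positive for 16 and negative for 14 of the 30, with a median of 0.07 beside -0.03 over all genes, of which 46.7% were positive.

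Without C4 the counts changed to 0 higher and 2 lower, LAMB1 among them, at 2-fold and p of 0.05, where 0.794% of all genes passed as higher and 3.9% as lower. The groups did not overlap for 4 genes as higher and 3 as lower, 13.3% and 10.0% of the 30, whereas 7.8% of all genes did so as higher and 26.7% as lower. None passed an adjusted p under 0.05 by limma, where 0.173% of all genes did. An unadjusted p under 0.05 was reached by 5 of the 30 (limma), again without a share of all genes to set beside it. The median log2 fold change was -0.02 beside -0.16 over all genes. LAMB1 and ITGB8 kept their direction.

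**Figure D2:**
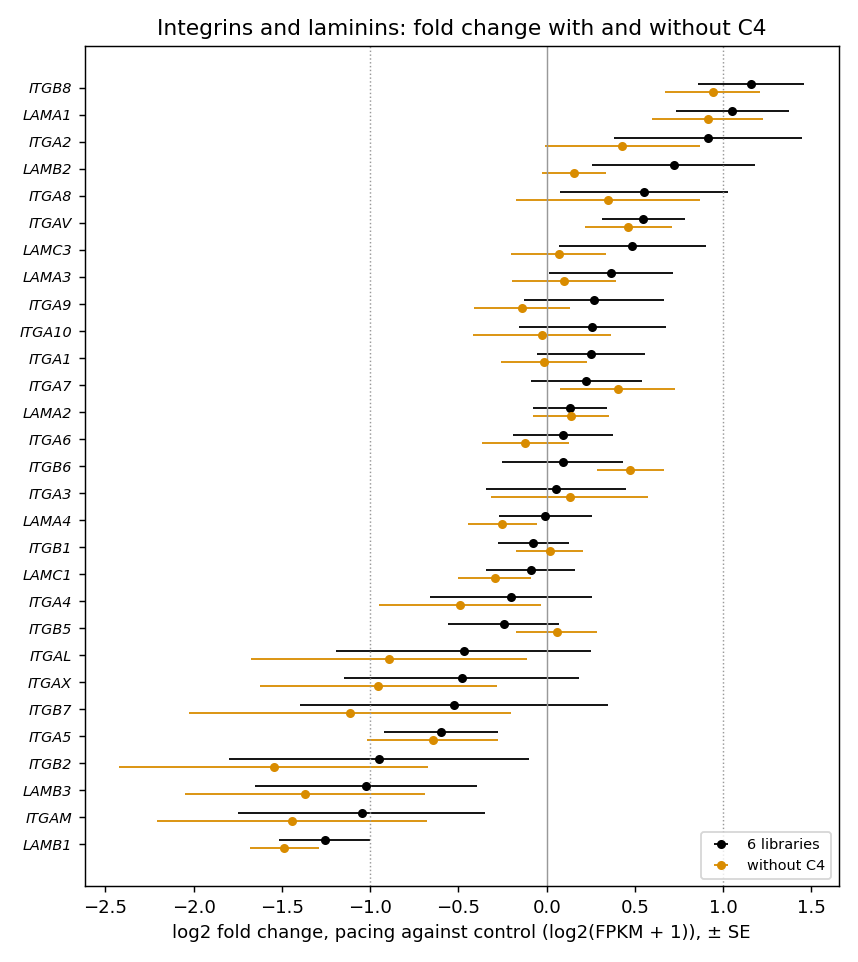
Log2 fold change of the tested genes reported here, pacing against control on log2(FPKM + 1), with the standard error as bars, for the 6 libraries (black) and without C4 (orange), and dotted lines at a 2-fold change. LAMB1 lies lowest at -1.26 and ITGB8 highest at 1.16, and without C4 they lie at -1.49 and 0.94.

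Among the laminins, LAMB1 was lower in the pacing group. LAMB1 (ENSCAFG00000025057, canFam3 chr18:12634661-12700157, plus strand) encodes the beta1 chain, which pairs with gamma1 in most laminins of developing and vascular basement membranes. It had 100.03, 128 and 70.2 FPKM in C1, C2 and C4 and 44.4, 38.9 and 36.4 FPKM in P1, P2 and P3. Every control library lay above every pacing library, and the pacing libraries lay close together.

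The mean of LAMB1 was 99.4 ± 29.0 FPKM in control dogs and 39.9 ± 4.09 FPKM in paced dogs (SD, n = 3), 2.49 times as high in the former. Its log2 fold change was -1.26 (SE 0.26, limma, unadjusted p = 0.0017, adjusted p = 0.879). Without C4 it was -1.49 (SE 0.19, unadjusted p = 0.0003, adjusted p = 0.102). With C4 counted as pacing it was also lower, and over the 15 alternatives it lay from -1.49 to -1.06 and passed the 2-fold rule in each. The exact permutation test over libraries gave p = 0.1, the smallest that 3 against 3 allow.

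LAMB2 encodes the beta2 chain, which takes the place of beta1 in laminins of the neuromuscular junction. It had 52.7, 48.9 and 15.04 FPKM in C1, C2 and C4 and 51.1, 54.9 and 64.9 FPKM in P1, P2 and P3. Control C4 was far below the other 5 libraries, which lay from 48.9 to 64.9 FPKM. The log2 fold change was 0.72 (SE 0.46, limma, adjusted p = 0.892) and fell to 0.16 without C4. With C4 taken as a pacing library it was -0.31. The locus listed for LAMB2 also covers USP19 on the same strand, at a mean of 11.03 FPKM.

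LAMB1 thus held most of the laminin beta chain mRNA in the control libraries and LAMB2 in the pacing libraries. The share of LAMB1 in the summed FPKM of LAMB1, LAMB2, LAMB3 and LAMB4 was 65.3%, 70.0% and 81.3% in C1, C2 and C4 and 46.3%, 41.5% and 35.9% in P1, P2 and P3. LAMB1 exceeded LAMB2 in each control library, with a ratio of 1.9 to 4.67, and lay below LAMB2 in each pacing library, with a ratio of 0.561 to 0.870. The shares averaged 72.2% ± 8.22 and 41.2% ± 5.21 (SD, n = 3, 2-sided exact permutation test, p = 0.1, the smallest possible). The ratio was formed after the values of both genes were seen. In C4 its height came with the low level of LAMB2, and in C1 and C2 with the high level of LAMB1.

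**Figure D3:**
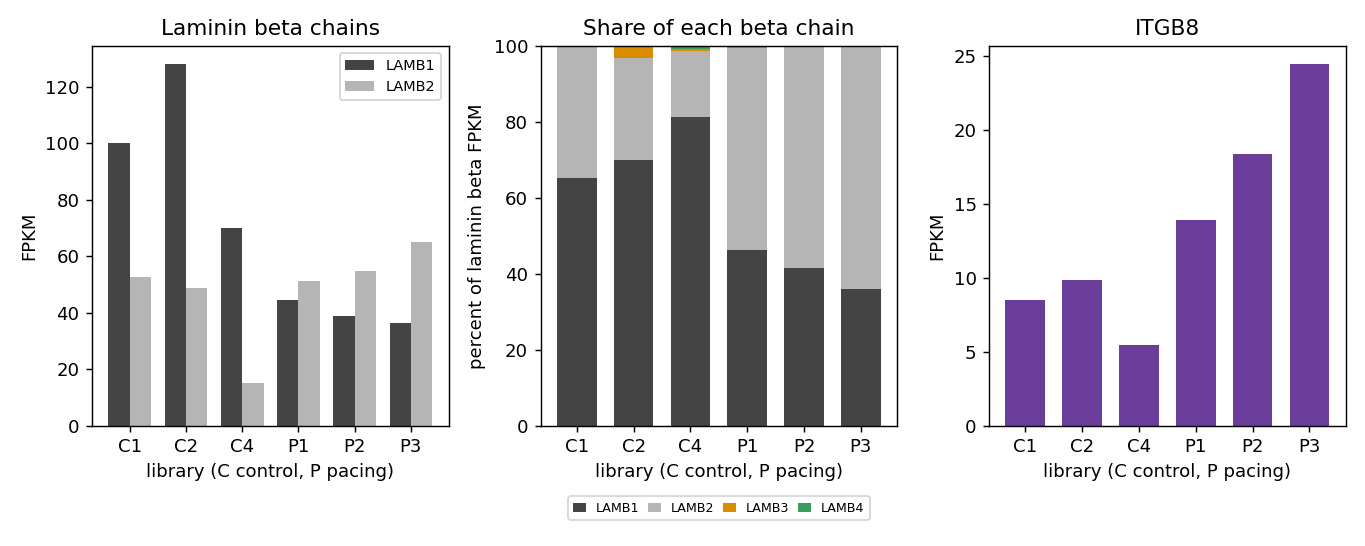
Level of LAMB1 and LAMB2 in each library (left, FPKM), share of each of the 4 beta chains in their summed FPKM (center, percent) and level of ITGB8 (right, FPKM), with 1 bar for each library. LAMB1 exceeds LAMB2 in C1, C2 and C4 only, LAMB1 takes 35.9% to 46.3% of the beta chain FPKM in the pacing libraries, and ITGB8 is at 9.82 FPKM or less in C1, C2 and C4.

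LAMC1 encodes the gamma1 chain of most laminins. It had 133, 107 and 77.5 FPKM in C1, C2 and C4 and 101, 82.7 and 109 FPKM in P1, P2 and P3, and the groups overlapped (log2 fold change -0.09, SE 0.25, limma, adjusted p = 0.962). The ratio of LAMB1 to LAMC1 was 0.753, 1.20 and 0.906 in C1, C2 and C4 and 0.441, 0.470 and 0.333 in P1, P2 and P3. This ratio separated the groups as well (exact permutation test, p = 0.1, the smallest possible). It rests on the same LAMB1 values and is not a separate result.

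LAMB3 and LAMA3 encode chains of the laminin under epithelia. LAMB3 had 5.80 FPKM in C2 and at most 0.521 FPKM in the other 5 libraries, and 0.0374 FPKM in P2 was the lowest. The high control mean of LAMB3 thus rests on C2, and its log2 fold change was -1.02 (SE 0.63, limma, unadjusted p = 0.145). LAMA3 lay from 0.286 to 1.72 FPKM in all libraries (log2 fold change 0.37, SE 0.35). LAMB3 was thus high in C2 only, whereas LAMA3 was not.

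Markers of fat cells were high in C1 and C2, where LAMB1 was highest. The 4 markers of fat cells that define them here (ADIPOQ, CIDEC, LEP and PLIN1) summed to 523 and 215 FPKM in C1 and C2, to 0.813 FPKM in C4 and to 3.40 to 7.16 FPKM in the pacing libraries. All 6 listed fat cell markers summed to 903, 457 and 343 FPKM in C1, C2 and C4 and to 128 to 183 FPKM in the pacing libraries, and none of them was at 0. C4 had the lowest level of the defining markers and the highest level of LPL, the lipoprotein lipase that heart muscle also makes, at 333 FPKM. The sum of all 6 markers lay above each pacing library in each control library, but of the single markers only 1, LPL, did so. In C4 the sum of all 6 was mostly LPL. The sum of the defining markers lay above each pacing library in C1 and C2 but not in C4. The part of fat cells in the difference of LAMB1 was not tested. In bulk tissue, fewer cells of a type and less RNA per cell cannot be told apart.

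The alpha chains of heart muscle and vessels did not pass the test. LAMA2 had 67.7, 69.7 and 69.2 FPKM in C1, C2 and C4 and 67.4, 67.2 and 95.5 FPKM in P1, P2 and P3, so 5 of the libraries lay from 67.2 to 69.7 FPKM. Its log2 fold change was 0.13 (SE 0.21, limma, adjusted p = 0.926). LAMA4 had 102, 95.8 and 59.2 FPKM in C1, C2 and C4 and 88.2, 69.8 and 92.9 FPKM in P1, P2 and P3, with C4 the lowest and a log2 fold change of -0.01 (SE 0.27).

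LAMA1, the alpha1 chain typical of embryonic basement membranes, was low but higher in the pacing group. It lies at canFam3 chr7:73307183-73438713 on the minus strand. It had 1.16, 0.373 and 0.285 FPKM in C1, C2 and C4 and 1.94, 2.78 and 2.06 FPKM in P1, P2 and P3, without overlap. The control mean of 0.606 FPKM lay under the filter of 1 FPKM, which LAMA1 passed only through the pacing mean of 2.26 FPKM. The log2 fold change was 1.05 (SE 0.32, limma, unadjusted p = 0.0131, adjusted p = 0.879), and the pseudocount of 1 makes it smaller than the ratio of the means of 3.73. It fell under 2-fold to 0.91 without C4, to 0.96 without C2 and to 0.94 without P2. With C4 counted as pacing it was 0.58 (limma, unadjusted p = 0.273).

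LAMC3, the gamma3 chain, had 2.36, 2.14 and 0.362 FPKM in C1, C2 and C4 and 2.17, 3.28 and 1.899 FPKM in P1, P2 and P3. Its log2 fold change of 0.49 (SE 0.41, limma, unadjusted p = 0.279) fell to 0.07 without C4, the only low library. LAMB4 lies 23.8 kb from LAMB1 and was not tested, at 0.0477, 0.105 and 0.585 FPKM in C1, C2 and C4 and from a listed 0 to 0.00847 FPKM in P1, P2 and P3. It was highest in C4, and its groups did not overlap either.

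Among the integrins, ITGB8 was higher in the pacing group. ITGB8 (ENSCAFG00000002519, canFam3 chr14:34372853-34443940, plus strand) pairs with ITGAV in a receptor that binds the latent form of TGF-beta, a growth factor of fibrosis. It had 8.46, 9.82 and 5.43 FPKM in C1, C2 and C4 and 13.9, 18.3 and 24.4 FPKM in P1, P2 and P3. Every pacing library lay above every control library, and C4 was the lowest.

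The mean of ITGB8 was 7.90 ± 2.25 FPKM in control dogs and 18.9 ± 5.30 FPKM in paced dogs (SD, n = 3), a ratio of 2.39. The log2 fold change was 1.16 (SE 0.30, limma, unadjusted p = 0.0060, adjusted p = 0.879). It fell just under 2-fold to 0.94 without C4 (unadjusted p = 0.0133, adjusted p = 0.236, limma) and to 0.96 without P3. With C4 counted as pacing it was 0.54 (limma, unadjusted p = 0.330). The exact permutation test gave p = 0.1, the smallest possible.

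ITGAV, its partner and the alpha chain of most receptors for the RGD motif of fibronectin and vitronectin, was the most abundant alpha chain. It had 86.1, 110 and 81.0 FPKM in C1, C2 and C4 and 105, 144 and 159 FPKM in P1, P2 and P3. P1 lay below C2, so the groups overlapped, and the log2 fold change was 0.55 (SE 0.24, limma, unadjusted p = 0.0533, adjusted p = 0.879). The ratio of ITGB8 to ITGAV was 0.0670 to 0.0983 in control dogs and 0.127 to 0.153 in paced dogs (exact permutation test, p = 0.1). This ratio rests on the same ITGB8 values and is not a separate result.

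ITGB6 and ITGB5, 2 further partners of ITGAV, were highest in C4. ITGB6, known mainly from epithelia, had 38.4, 44.7 and 93.2 FPKM in C1, C2 and C4 and 56.9, 66.5 and 51.4 FPKM in P1, P2 and P3. Its log2 fold change was 0.09 (SE 0.34) with C4 and 0.47 (SE 0.19, limma, unadjusted p = 0.0485, adjusted p = 0.325) without it, where the pacing libraries all lay above C1 and C2. ITGB5 had 16.1, 13.5 and 28.4 FPKM in C1, C2 and C4 and 19.1, 15.1 and 12.6 FPKM in P1, P2 and P3, with overlap (log2 fold change -0.24, SE 0.32).

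ITGA5, the alpha chain of the classical fibronectin receptor, had 44.7, 74.3 and 52.2 FPKM in C1, C2 and C4 and 55.9, 28.5 and 30.4 FPKM in P1, P2 and P3. P2 and P3 were low and P1 lay among the control libraries. Its log2 fold change was -0.60 (SE 0.32, limma, unadjusted p = 0.105), -0.65 without C4, and was negative in all 15 alternatives, from -0.90 to -0.40. ITGA8, an RGD receptor chain of mesenchyme and smooth muscle, had 2.71, 1.40 and 0.939 FPKM in C1, C2 and C4 and 3.20, 5.35 and 1.04 FPKM in P1, P2 and P3 (log2 fold change 0.55, SE 0.48).

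The laminin receptors of the family did not pass the test. ITGA7, the alpha chain of the main laminin receptor of muscle, had 25.3, 25.5 and 37.2 FPKM in C1, C2 and C4 and 52.3, 26.2 and 28.2 FPKM in P1, P2 and P3. The libraries C4 and P1 were high, and the log2 fold change was 0.22 (SE 0.32, limma, adjusted p = 0.918), or 0.40 without C4. ITGA6 lay from 12.7 to 22.5 FPKM (log2 fold change 0.09, SE 0.28) and ITGA3 from 0.485 to 2.35 FPKM (0.05, SE 0.40). The locus listed for ITGA3 also covers PDK2 on the same strand at 83.9 FPKM.

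Among the collagen receptors, ITGA1 was the main chain at 15.2 to 32.7 FPKM, with the lowest level in C4 (log2 fold change 0.25, SE 0.30). ITGA2, known from platelets and epithelia, had 0.937, 3.58 and 0.0876 FPKM in C1, C2 and C4 and 4.15, 2.10 and 3.03 FPKM in P1, P2 and P3. C4 was far below the rest, and its log2 fold change of 0.91 (SE 0.53, limma, unadjusted p = 0.131) became -0.04 with C4 counted as pacing. Without C2 it was 1.47 and passed the 2-fold rule (limma, unadjusted p = 0.0086, adjusted p = 0.984). The locus listed for ITGA2 also covers MOCS2 on the opposite strand, at a mean of 54.0 FPKM. ITGA10 lay from 0.246 to 2.31 FPKM (0.26, SE 0.42), and ITGA11 from 0.626 to 0.994 FPKM, not tested. ITGA9, a receptor of tenascin and other ligands, lay from 6.24 to 19.1 FPKM (0.27, SE 0.40).

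The integrins of white blood cells varied widely within both groups, and none passed the test. ITGB2, the beta chain they share, had 3.77, 25.4 and 2.24 FPKM in C1, C2 and C4 and 6.61, 3.02 and 0.857 FPKM in P1, P2 and P3 (log2 fold change -0.95, SE 0.85, limma, adjusted p = 0.896). ITGAM, its partner on macrophages and neutrophils, had 3.43, 14.6 and 2.67 FPKM and 5.79, 1.52 and 0.676 FPKM in the same order, with a log2 fold change of -1.05 (SE 0.70, limma, unadjusted p = 0.177) that passed the 2-fold rule only without P1 (-1.62, unadjusted p = 0.0499). C2 was the highest and P3 the lowest for both genes. The locus listed for ITGB2 also covers FAM207A on the opposite strand at a mean of 4.17 FPKM. It covers an unnamed gene on the same strand at 2.42 FPKM as well.

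Of the other chains found on leukocytes, ITGAL, ITGAX, ITGB7 and ITGA4 shared this order at its ends. They were all highest in C2, at 12.9, 6.62, 13.4 and 3.40 FPKM, and lowest in P3, at 0.710, 0.309, 0.416 and 0.461 FPKM. ITGB2, ITGAL, ITGAM, ITGAX and ITGB7 together gave 11.6, 73.0 and 7.80 FPKM in C1, C2 and C4 and 23.5, 10.6 and 2.97 FPKM in P1, P2 and P3. The summed level of the 15 leukocyte markers in the table had the same highest and lowest library, at 256, 977 and 114 FPKM and at 525, 193 and 76.9 FPKM. Of the 15 markers, 10 were highest in C2 and lowest in P3. CD2, a marker of T and natural killer cells, went the other way and was highest in P3 (40.6 FPKM) and low in C2 (0.829 FPKM), and CD163, a macrophage marker, was highest in P1 (98.5 FPKM). Their part in the levels of these integrins was not tested. ITGAD and ITGAE did not share the order. ITGAD ranged from 0.0308 FPKM in C4 to 2.14 FPKM in P3, unlike its neighbour ITGAX, 64.2 kb away, and ITGAE from 0.0925 FPKM in C4 to 0.353 FPKM in C1. Neither was tested, nor was the platelet chain ITGA2B (0.0587 to 0.529 FPKM).

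**Figure D4:**
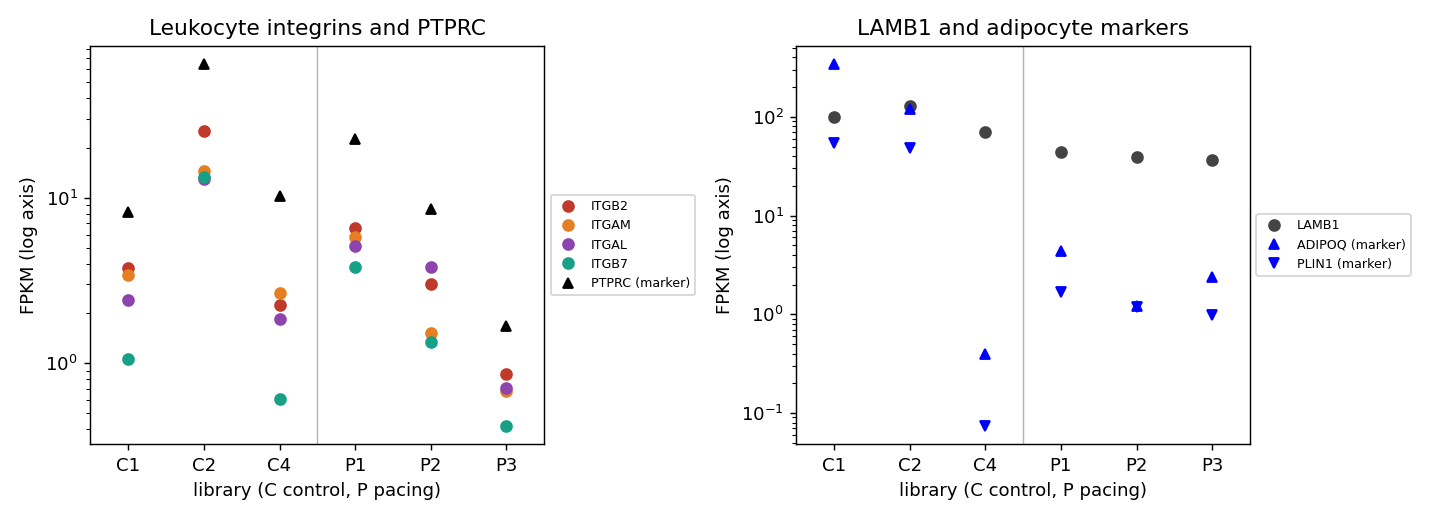
FPKM (log axis) in each library of 4 leukocyte integrins with the leukocyte marker PTPRC (left) and of LAMB1 with the fat cell markers ADIPOQ and PLIN1 (right), control libraries left of the grey line. ITGB2 is highest in C2 (25.4 FPKM), where PTPRC is highest as well, and ADIPOQ is highest in C1 (343 FPKM) and lowest in C4 (0.396 FPKM), where LAMB1 is at 70.2 FPKM.

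The partners of these genes were also counted. Of 12 tested genes of basement membrane proteins other than laminins, such as collagen IV and nidogen, none passed the 2-fold rule (limma, with 0 at an unadjusted p under 0.05), and the median log2 fold change was 0.13. COL4A1, a collagen IV chain, had the smallest p, at 151, 146 and 79.8 FPKM in C1, C2 and C4 and 111, 55.8 and 73.4 FPKM in P1, P2 and P3 (log2 fold change -0.64, SE 0.35). AGRN, the heparan sulfate proteoglycan agrin (0.49, SE 0.31), and PXDN, the peroxidasin that crosslinks collagen IV (0.81, SE 0.52), followed, and PXDN passed without C1 (1.28). Without C4 the median was -0.25, with 4 positive and 8 negative, and 1 gene passed as higher, where 0.794% of all genes did. It was NTN4, which encodes a netrin that binds laminin (log2 fold change 1.08 without C4). NTN4 was highest in C4, at 18.9 FPKM beside 10.1 to 11.3 FPKM in the pacing libraries. With C4 as control its log2 fold change was 0.47 (SE 0.50, limma, unadjusted p = 0.376). In the fit without C4, COL4A1 (-0.94), COL4A2 (-0.81) and NID1 (-0.96), the nidogen that links laminin to collagen IV, were lower without overlap. Their unadjusted p was 0.0225, 0.0390 and 0.0098 (limma), and they stayed under 2-fold. HSPG2 (-0.24) and SMOC2 (-0.49) of the same list were also lower without overlap, while AGRN (0.26) and NTN4 were higher without overlap. In that setting 26.7% of all genes were lower and 7.8% higher without overlap, and the median over all genes was -0.16.

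Of 13 tested laminin receptors that are not integrins, 9 had a positive and 4 a negative log2 fold change, with a median of 0.28, and without C4 there were 8 positive and 5 negative with a median of 0.15. With and without C4, 0 passed the 2-fold rule as higher and 1 as lower, where 0.958% of all genes passed as lower with C4 and 3.9% without it. The lower gene was SDC4, the syndecan of focal adhesions, at 416, 317 and 72.7 FPKM in C1, C2 and C4 and 86.4, 43.4 and 38.7 FPKM in P1, P2 and P3 (log2 fold change -2.00, SE 0.66, limma, unadjusted p = 0.0188). Without C4 it was -2.76 (SE 0.38, limma, unadjusted p = 0.0004). It no longer passed without C1 (-1.51), C2 (-1.71), P2 (-1.86) or P3 (-1.78), nor in a linear model without moderation. C1 and C2 were high, as they were for the fat cell markers, and C4 lay within the pacing libraries. The part of fat cells in the level of SDC4 was not tested. SGCD, the delta-sarcoglycan of the dystroglycan complex, had 44.7, 33.3 and 35.9 FPKM in C1, C2 and C4 and 56.2, 60.2 and 79.4 FPKM in P1, P2 and P3 without overlap (0.76, SE 0.22, limma, unadjusted p = 0.0108). SSPN, the sarcospan of the same complex, had a log2 fold change of 0.71 (SE 0.29, limma, unadjusted p = 0.0450), and both stayed under 2-fold. Without C4 these were 0.73 for SGCD and 0.83 for SSPN.

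Inside the cell, none of 35 tested genes of the adhesion machinery that integrins connect to passed the 2-fold rule or an unadjusted p under 0.05 (limma), and 19 had a positive and 16 a negative log2 fold change with a median of 0.04. Without C4, 12 were positive and 23 negative with a median of -0.14, again none passed the 2-fold rule, and 1 had an unadjusted p under 0.05 (limma). The smallest p was that of FLNC, a muscle filamin, at 135, 427 and 381 FPKM in C1, C2 and C4 and 171, 97.95 and 136 FPKM in P1, P2 and P3 (-1.08, SE 0.46, limma, unadjusted p = 0.0513). C1 was the only control library among the pacing values, and without it FLNC passed the 2-fold rule (-1.61, limma, unadjusted p = 0.0018), while without C4 it was -0.86. ITGB1BP2, the melusin that binds ITGB1 in muscle, followed (0.72, SE 0.33), as did CD151, a tetraspanin that holds laminin-binding integrins (0.39, SE 0.21).

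Of 14 tested ligands of integrins other than laminins, 2 passed as higher and 1 as lower, where 1.05% and 0.958% of all genes did. Without C4, 2 passed as higher and 2 as lower, where 0.794% and 3.9% of all genes did. With C4, 9 were positive and 5 negative with a median of 0.38, and without C4, 10 and 4 with a median of 0.08. POSTN, the matrix protein periostin, had 7.31, 4.47 and 0.838 FPKM in C1, C2 and C4 and 114, 46.1 and 43.5 FPKM in P1, P2 and P3 (log2 fold change 3.83, SE 0.61). VCAM1, an endothelial ligand of the ITGA4 receptor, was higher (1.29, SE 0.28) and THBS1, thrombospondin 1, was lower (-1.71, SE 0.49). Without C4 the log2 fold changes were 3.21 for POSTN, 1.17 for VCAM1 and -2.21 for THBS1, and NTN1, netrin 1, also passed as lower (-1.08). NTN1 was lowest in C4, at 0.186 FPKM, and with C4 as control its log2 fold change was -0.39 (SE 0.61, limma, unadjusted p = 0.541). With C4 taken as a pacing library, POSTN (1.94) and VCAM1 (0.78) did not pass. None of the 4 partner lists had a gene past an adjusted p of 0.05 (limma).

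The same genes also give circRNAs, closed RNA rings that are counted by the reads across their back-splice junction. Counts of 1 do not occur in that table, so a 0 may hide a single read. Of 15990 circRNAs in the table, 74 were annotated to 17 of the integrin and laminin genes, and they held 512 junction reads, 0.28% of all. Of these 74, 53 were exonic, 8 intronic, 7 sense overlapping and 6 antisense, and 57 (77.0%) had reads in 1 library only, as did 70.2% of all circRNAs. None passed a 2-fold change with an unadjusted p of 0.05 (edgeR quasi-likelihood test), where 0.663% of all circRNAs passed as higher and 0.356% as lower, and none had an unadjusted p under 0.05 (smallest 0.135). At these depths most of the 74 were too rare for a difference to be detectable.

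LAMA2 gave the most, with 32 circRNAs and 288 reads, 56.2% of the reads of the family. Its junctions had 31, 32 and 47 reads in C1, C2 and C4 and 71, 59 and 48 reads in P1, P2 and P3, and the totals of the pacing libraries were also higher. As CPM of all junction reads these were 1540 ± 385 in control dogs and 1680 ± 679 in paced dogs (SD, n = 3, 2-sided exact permutation test, p = 0.8). The groups overlapped, as they did for LAMA2 mRNA.

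Of the 74, 3 had reads in all 6 libraries. The exonic circRNA of 906 nucleotides at canFam3 chr1:67967709-67981882 in LAMA2 had 10, 5 and 19 reads in C1, C2 and C4 and 23, 12 and 17 reads in P1, P2 and P3 (log2 fold change 0.31, SE 0.77, edgeR). That of 284 nucleotides at chr1:67645470-67652787 in LAMA2 had 3, 8 and 14 reads and 19, 16 and 15 reads, more reads in each pacing library, which were also deeper, and not past the test (0.68, SE 0.80, edgeR). A sense overlapping circRNA of ITGAV at chr36:28815283-28838062 had 6, 27 and 2 reads and 7, 19 and 18 reads (-0.06, SE 0.79, edgeR). For all 3 the error exceeded the difference.

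The next 5 by reads were found in 2 to 4 libraries each. An ITGB6 circRNA of 876 nucleotides had 16 reads, of which 2 were in C2, 7 in P1 and 7 in P2. An ITGB8 circRNA of 930 nucleotides had 4 reads in C1, 3 in P1 and 5 in P3, and ITGB8 as a whole gave 8, 2 and 0 reads in C1, C2 and C4 and 5, 0 and 9 reads in P1, P2 and P3, so its circRNAs did not separate the groups as its mRNA did. The others were an ITGAL circRNA with 11 reads in C2 and P1, a LAMC1 circRNA with 11 reads in C2, C4 and P2, and a LAMA2 circRNA of 425 nucleotides with 10 reads in C4, P1, P2 and P3. LAMB1 had 2 circRNAs with 4 reads in all, in C4 and P1, too few for any comparison.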

How the data were processed

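Total RNA of 3 control and 3 paced dogs was analysed, which the study gives as right atrial and which is in doubt for C4. The authors deposited FPKM values, for which the labels list HISAT2, Cufflinks and Cuffdiff without settings. Relative depths were read from the commonest ratio between libraries over genes with a mean under 0.2 FPKM. The circRNA table holds counts of junction reads that the authors made with find_circ after trimming (cutadapt 1.9.3) and Bowtie2 alignment to canFam3, from 22987 to 41299 a library. Whether reads were counted by strand is not given in the sources used here. The locus listed for 9 of the 35 genes covers further genes. 1 of the laminin genes enters the fits and counts and is not reported here.

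Columns were grouped by name. The numbers of the sample labels do not match the columns, so no library was tied to a label. Where nothing else is stated, p-values are 2-sided. limma 3.58.1 (trend, pseudocount 1) was run on the mRNAs whose mean reached 1 FPKM, and edgeR 4.0.16 on the circRNAs (quasi-likelihood, TMM), with the SE of a circRNA taken as its log2 fold change over the root of F, and with p adjusted over all features by Benjamini-Hochberg. The 2-fold rule takes the thresholds the study gives for circRNAs. On simulated data 126 of 200 mRNAs changed 4-fold passed the adjusted threshold among 11583 genes, with 12 unchanged ones. The changed mRNAs were drawn above a minimum level, and no change under 4-fold was simulated. The mRNA rate therefore does not describe changes as small as those of LAMB1, ITGB8 and LAMA1. Of 200 simulated circRNAs changed 4-fold, 135 passed the 2-fold rule among 14536, with 347 unchanged ones. The simulation was not run at the read counts of the integrin and laminin circRNAs, of which 77% had reads in 1 library only. Its circRNA rate therefore does not describe them.

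Genes and lists were chosen with earlier results of these data known. Values in every library were given for the 12 genes with the smallest p, the 3 most abundant alpha, beta and laminin chains, the chains of heart muscle basement membrane, ITGB2, 3 genes of each partner list and the 8 circRNAs with the most reads, with shorter accounts for a few. NTN4, NTN1, COL4A2, NID1, HSPG2, SMOC2, CD2, CD163, the leukocyte chains other than ITGB2 and ITGAM beside their markers, LAMB4 and the chain ratios were added after their values were seen. Alternatives were the pseudocount, the filter, the scaling, the fit (DESeq2 1.42.0 for circRNAs), each library left out and C4 as pacing. In the mRNA and circRNA files, 12 per-sample columns were not used, those headed Counts and the normalized circRNA values, and neither were the lncRNA and miRNA tables.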

Additional observations from a re-analysis of the deposited data

How the results depend on the processing

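The number of integrin and laminin mRNAs past the 2-fold rule was 3 and lay from 2 to 4 over 15 alternatives, and the number past an adjusted p of 0.05 was 0 in each (limma). The 74 circRNAs gave 0 past the 2-fold rule in all 11 alternatives, DESeq2 included. With C4 counted as pacing, the median log2 fold change of the family moved from 0.07 to -0.26, while that of all genes moved from -0.03 to -0.22. That setting turned the log2 fold change of ITGA2 (-0.042), LAMB2 (-0.31), LAMC3 (-0.26), LAMA3 (-0.13), ITGA1 (-0.21), ITGA9 (-0.41), ITGA10 (-0.24), ITGA6 (-0.25) and PXDN (-0.30) negative and that of ITGB5 (0.27) and ITGB1 (0.080) positive, and LAMA4 turned positive under median centring (0.046) and TMM scaling (0.017). The cause was not tested.

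Leaving out 1 library at a time turned the sign of 16 mRNAs that passed no test, whose log2 fold changes then ran from -0.015 to 0.52 (ITGA1), -0.45 to 0.057 (ITGB5), -0.95 to 0.25 (ITGAX), -0.082 to 0.40 (ITGA7), -0.14 to 0.49 (ITGA9), -0.90 to 0.25 (ITGAL), -0.033 to 0.22 (LAMA2), -0.030 to 0.53 (ITGA10), -1.11 to 0.47 (ITGB7), -0.49 to 0.19 (ITGA4), -0.18 to 0.016 (ITGB1), -0.30 to 0.090 (LAMC1), -0.12 to 0.28 (ITGA6), -0.16 to 0.47 (ITGB6), -0.25 to 0.27 (ITGA3) and -0.25 to 0.14 (LAMA4). For the circRNAs it gave -0.17 to 0.91 (LAMA2, 906 nucleotides) and -0.54 to 1.40 (ITGAV), with no call. The direction of LAMB1, ITGB8, LAMA1, ITGAV, ITGA5, LAMB3, ITGAM, ITGA8 and ITGB2 held under each alternative run. No paired analysis was possible because the columns carry no number that the sample labels tie to a dog or a pair. Precision is limited by 3 dogs a group and by the doubt over C4, and for LAMB4 and most circRNAs by low levels.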
